A study of Triticum aestivum with 6 samples.

Results

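A group of 229 abundant transcripts of wheat roots that were lower in every root sample given a mycorrhizal fungus was described across the 6 RNA-seq libraries of the study. Members were chosen by their measured values, in FPKM (fragments per kilobase of transcript, scaled to the mapped fragments of the library). Each had at least 50 FPKM in all 3 libraries of non-mycorrhizal roots (NM), and its highest value among the 3 libraries of mycorrhizal roots (AM) was at most 0.5 times and above 0.25 times its lowest NM value. The choice was made among the 100231 IDs whose prefix, Traes_ or TRAES3BF, carries a chromosome, out of 114264 IDs in all. Before identical IDs were counted once, 231 IDs met the rule, and 2 were left out because another ID held the same values in all libraries. The 229 members were 6.83% of the 3354 IDs that reached 50 FPKM in each NM library, called abundant IDs here. A further 20 XLOC loci, which state no chromosome, met the same values and are not members.

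All libraries came from bread wheat of the cultivar Chinese Spring, a hexaploid that carries the A, B and D subgenomes. Plants of both groups grew in pots of steam-sterilized soil and quartz sand, and RNA was taken from about 100 mg of root per replicate. The AM group was inoculated with the arbuscular mycorrhizal fungus Rhizophagus irregularis and its sample titles state that a molecular signal was added, while the NM group received none. The sources used here do not name the signal, the age at harvest or the share of the root that was colonized.

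In an arbuscular mycorrhiza the fungus enters the root, grows between and into cortex cells and forms branched arbuscules there, across which the plant receives mineral nutrients, above all phosphate, and hands over carbon as lipids and sugars. Plants with a working mycorrhiza are known to take up phosphate through transporters at the arbuscule and to reduce the use of the direct uptake pathway at the root surface. Colonization is also known to change the transcripts of nutrient transporters, cell wall proteins, defence proteins and secondary metabolism in many host species. None of the members (0 of 229) was found in the available reference table of wheat genes, so no member is given a gene name or a role here, and members are described by their level, their chromosome arm and their neighbours. For the same reason root marker genes could not be looked up, and the labelled tissue was not checked against them.

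FPKM divides out transcript length and library size, but each value stays relative to the other transcripts of its library. Summed FPKM ran from 1136829 to 1193206 over the libraries, and the median-ratio factors that would align the libraries ran from 0.980 to 1.01 in NM and from 1.02 to 1.06 in AM. The read counts behind the values are unknown. The samples are called biological replicates by the submitters. In whole roots, fewer cells of a type and less RNA per cell cannot be told apart.

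In NM roots the members had a median of 131 FPKM in replicate 1, 139 in replicate 2 and 128 in replicate 3, with a range over all members and NM libraries of 50.2 to 1479.38 FPKM. In AM roots the medians were 27.4, 42.4 and 21.3 FPKM in replicates 1, 2 and 3. The rule fixes that the groups do not overlap for any member, so the gap is a description of the choice and not a finding. The members' share of all FPKM in a library was 3.91% ± 0.257 (SD, n = 3) in NM roots and 0.854% ± 0.301 (SD, n = 3) in AM roots. The 3 AM libraries gave 0.793%, 1.18% and 0.589% in replicates 1, 2 and 3. AM replicate 2 was the highest and AM replicate 3 the lowest of them. The most abundant 10 members held 19.9% of the members' summed NM level, so no small group carried the sum.

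The fall was not uniformly 2 to 4-fold. That range described the highest AM value, which the rule used, while the other AM values could lie anywhere below it. Set against the mean of the NM libraries, the members lay at a median of 23.4% in AM replicate 1 (quartiles 11.5% and 30.7%), 31.6% in AM replicate 2 (quartiles 25.6% and 36.2%) and 16.3% in AM replicate 3 (quartiles 7.86% and 24.0%). By group means, the NM mean was 2 to 4 times the AM mean in 106 members, 4 to 8 times in 89 and 8 times or more in 34, with a median of 4.16. In 96 members the lowest AM value was under an 8th of the NM mean, and in 48 it was under a 16th.

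Only 68 of the members, 29.7%, kept all 3 AM values above 0.25 times the lowest NM value. They are called even members here, and the other 161 uneven members, a division made after the values were seen. The names refer to this limit and not to the spread of the AM values. For example, an uneven member on 7DS had 25.44, 28.03 and 28.02 FPKM in AM replicates 1, 2 and 3. An even member on 2AL had 77.29, 42.74 and 79.68 FPKM there. Even members lay at medians of 32.4%, 35.6% and 27.2% of the NM mean in AM replicates 1, 2 and 3. Uneven members lay at 16.3%, 30.2% and 10.6%. The uneven members therefore differed from the even ones mainly in AM replicates 1 and 3, but the division used the AM values. The limit of 0.25 times the lowest NM value was exceeded in AM replicate 2 by 219 members, in AM replicate 1 by 128 and in AM replicate 3 by 76. Of the uneven members, 103 had 2 AM values at or below this limit and 58 had 1. The median coefficient of variation among the AM libraries was 15.7% for even and 57.1% for uneven members, against 12.9% and 14.8% among the NM libraries. The AM values of even members are bounded on both sides, so this AM difference follows in part from the division. Uneven members were the more abundant in NM roots, with a median NM mean of 149 FPKM against 112 FPKM.

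**Figure D1:**
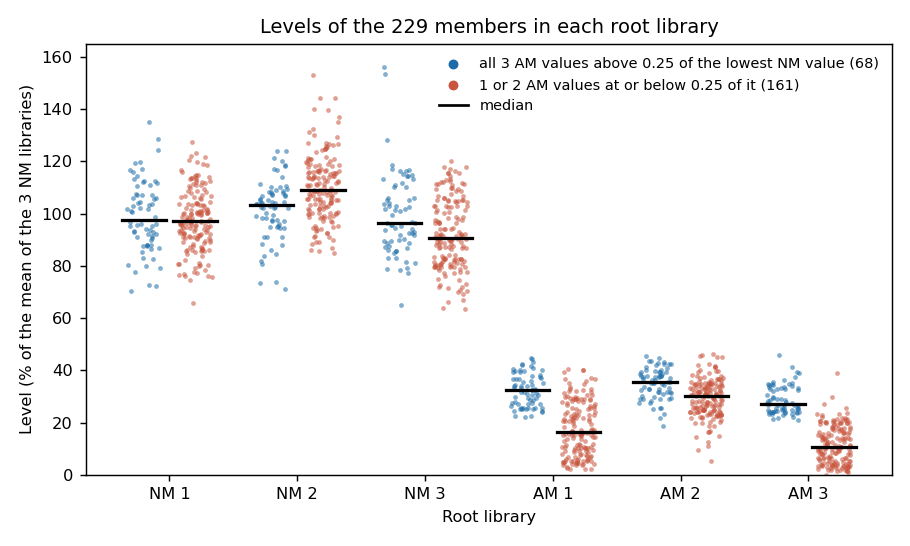
Levels of the 229 members in each library, as a percent of each member's own mean over the 3 NM libraries (linear axis). Each point is a member, blue for the 68 even and red for the 161 uneven members, and black lines are medians. In AM the red medians sit at 16.3%, 30.2% and 10.6% and the blue ones at 32.4%, 35.6% and 27.2% in replicates 1, 2 and 3.

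The most abundant member in NM roots was Traes_1BL_5D23F5133, an ID of the long arm of chromosome 1B. It had 1152.59, 1479.38 and 1116.36 FPKM in NM replicates 1, 2 and 3, and 74.82, 336.29 and 40.7 FPKM in AM replicates 1, 2 and 3. All AM values lay far below all NM values, and AM replicate 2 stood apart from the other AM libraries. On the log2(FPKM + 1) scale the fitted change, AM minus NM, was -3.60 with a standard error of 0.72 (adjusted p = 0.0183, limma with Benjamini-Hochberg adjustment over all tested IDs). This call was lost without NM replicate 1, without NM replicate 2 or without AM replicate 1, where the fitted changes were -3.65, -3.47 and -3.39.

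The member whose fitted change lay nearest the median was Traes_5BL_0BFAE33B9, an ID of the long arm of 5B. It had 354.14, 406.78 and 339.2 FPKM in the NM libraries and 38.33, 166.2 and 99.69 FPKM in AM replicates 1, 2 and 3. Here AM replicate 1 was the low library and the AM values spread over a wider range than the NM values. The fitted log2 change was -2.07 with a standard error of 0.49 (adjusted p = 0.0329, limma). The call was lost without a filter on low values and without NM replicate 1, NM replicate 2, NM replicate 3 or AM replicate 3, where the fitted changes ran from -2.18 to -2.0.

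The other members among the 10 most abundant are given by rank and arm. The member of rank 2, on chromosome 3B, had 984.65, 1318.92 and 1392.18 FPKM in NM replicates 1 to 3 and 128.18, 299.9 and 99.55 FPKM in AM replicates 1 to 3. Rank 3, a member on 4DL, had 1121.67, 1215.08 and 1007.71 FPKM in NM and 351.06, 337.19 and 222.99 FPKM in AM. These neighbours in rank had almost the same NM level, yet their AM means were 175.88 FPKM and 303.75 FPKM, with AM replicates 1 and 2 nearly equal only in the second. Rank 4, on 5DL, had 1082.8, 1117.7 and 836.43 FPKM in NM and 31.01, 259.42 and 41.35 FPKM in AM. Rank 5, on 3B, had 1075.63, 1010.35 and 563.81 FPKM in NM and 232.08, 132.91 and 109.39 FPKM in AM. It was the one member of the first 10 besides rank 3 whose highest AM value was in replicate 1.

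The member of rank 6, on 6AL, had 971.7, 869.96 and 762.63 FPKM in NM and 194.55, 290.69 and 145.72 FPKM in AM. The member of rank 7, on 3B, had 732.24, 1084.06 and 555.79 FPKM in NM and 68.03, 250.49 and 30.43 FPKM in AM. Both had AM replicate 2 high and AM replicate 3 low. On 1AL, rank 8 had 685.54, 733.76 and 736.79 FPKM in NM and 245.52, 303.89 and 178.23 FPKM in AM, and it was the most abundant even member. On 5DL, rank 9 had 668.99, 745.36 and 598.23 FPKM in NM and 35.39, 178.68 and 25.56 FPKM in AM. On 7DL, rank 10 had 594.44, 706.59 and 560.2 FPKM in NM and 121.5, 242.78 and 31.89 FPKM in AM. In the members of rank 1 to 10, AM replicate 3 was the lowest library in all but rank 4, where AM replicate 1 was lower.

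**Figure D2:**
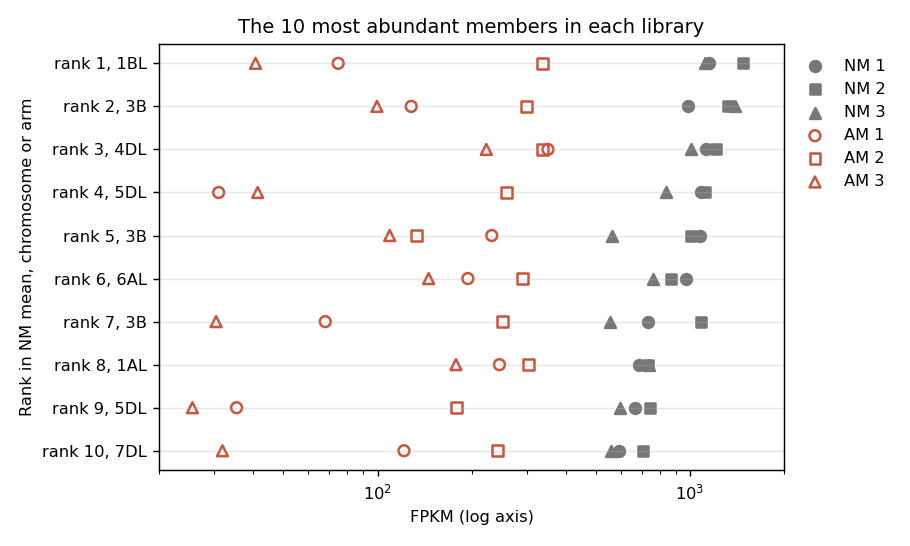
FPKM of the 10 most abundant members in each library (log axis), with NM libraries as filled grey and AM libraries as open red symbols. AM replicate 2 (squares) is to the right of AM replicate 3 (triangles) in all 10 members, and the AM values of the member on 5DL at rank 4 reach from 31.01 to 259.42 FPKM.

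At the other end, the smallest fitted changes were in 2 members of group 3, picked out after their values were seen. The member on 3DS had 80.94, 75.79 and 70.22 FPKM in NM and 33.57, 32.93 and 34.63 FPKM in AM, a fitted log2 change of -1.14 with a standard error of 0.11. The member on 3DL had 64.31, 72.44 and 69.8 FPKM in NM and 27.38, 29.64 and 27.21 FPKM in AM, a fitted change of -1.26 with a standard error of 0.11. In both, the 3 AM libraries were nearly equal. The largest standard error on the log2 scale, 1.36, was that of a member on 3AL, with 227.55, 277.75 and 243.53 FPKM in NM and 6.05, 62.33 and 0 FPKM in AM replicates 1, 2 and 3. It was the single member listed at 0 in any library. The opposite order was seen in a member on 4AS, with 57.59, 66.88 and 62.35 FPKM in NM and 17.59, 3.26 and 24.24 FPKM in AM, where AM replicate 2 was the lowest.

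The thresholds cut through a continuous range of values. Just inside the upper limit were a member on 1DS, whose highest AM value was 0.4997 of its lowest NM value, and one on 2BL at 0.4976, and just outside were IDs on 4AS and 5BL at 0.5003 and 0.5033. Just inside the lower limit were members on 6AL and 2BL at 0.2522 and 0.2527, and just outside were IDs on 7DS and 4AS at 0.2499 and 0.2497. By abundance, the lowest NM values of members were 50.2 FPKM (3B) and 50.66 FPKM (4AS), and the next IDs below the limit had 48.41 FPKM (7DL) and 47.97 FPKM (7BL). Of the 3354 abundant IDs, 123 lay at or below the lower limit and 3002 above the upper limit, of which 837 still had all AM values below all NM values. In the opposite direction, 6 abundant IDs had their lowest AM value at 2 to 4 times the highest NM value, and 0 had it at 4 times or more. These counts do not compare the directions, since the limit of 50 FPKM applied to NM alone and left out IDs that were low in NM. Over all tested IDs, 4637 were called lower and 7272 higher in AM (limma, adjusted p under 0.05).

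The rule names no AM library, but it bounds the highest AM value, so the order within the members is not independent of the choice. Only 131 members also met the rule without AM replicate 2, against 224 without AM replicate 1 and 229 without AM replicate 3. AM replicate 2 held the highest AM value in 188 members (82.1%), AM replicate 1 in 34 and AM replicate 3 in 7. Among the 3125 other abundant IDs, AM replicate 2 was highest in 46.7%. In the 123 of these that lay at or below the lower limit, it was highest in 91.1%, so this order was not particular to the members. The order replicate 2 over replicate 1 over replicate 3 held in 166 members (72.5%) and in 34.0% of the other abundant IDs. In 86 members, 37.6%, AM replicate 2 was over 2 times as high as the mean of replicates 1 and 3, as it was in 5.31% of the other abundant IDs. The ratio of AM replicate 2 to the mean of AM replicates 1 and 3 had a median of 1.55 over the members (quartiles 1.2 and 3.03) and of 1.05 over the other abundant IDs. The order was weaker in even members, of which 66.2% had AM replicate 2 highest, than in uneven ones with 88.8%, but the division used the AM values. Members come from the same 3 AM libraries and are not replicates, so no test of this order was made.

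Across the members, the level relative to the NM mean in AM replicate 1 followed that in AM replicate 3 closely (Spearman's rho = 0.836 over 229 members) and followed AM replicate 2 less (rho = 0.519). AM replicates 2 and 3 gave 0.470. Over the other abundant IDs the same correlations were 0.790, 0.762 and 0.742. These points share their NM mean and the libraries, and the rule narrows the range of AM replicate 2, in which most highest values lay. The lowest 10% of the members lay at or below 5.35% of the NM mean in AM replicate 1 and 3.49% in AM replicate 3, whereas in AM replicate 2 the lowest 10% reached up to 22.3%. The 123 IDs that had fallen further than the members extended this pattern, with medians of 3.78%, 16.4% and 2.24% in AM replicates 1, 2 and 3.

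**Figure D3:**
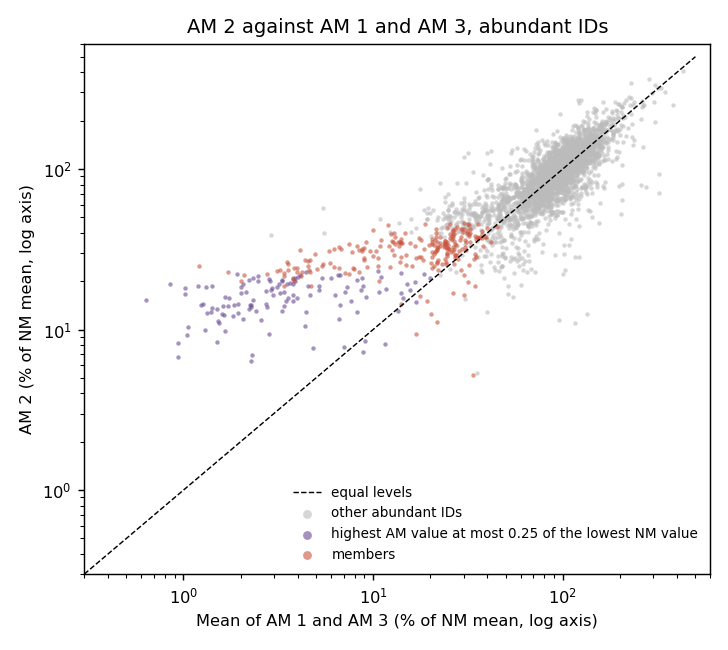
Level in AM replicate 2 against the mean of AM replicates 1 and 3, each as a percent of the NM mean on log axes, for the abundant IDs with values above 0. Members are red, the 123 IDs at or below the lower limit are purple, the rest are grey, and the dashed line marks equal levels. Of the members, 86 lie at more than 2 times the dashed line.

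The NM libraries had an order too. NM replicate 2 held the highest NM value in 120 members (52.4%) and NM replicate 3 the lowest in 124 (54.1%), against 38.8% and 43.3% of the other abundant IDs. Among uneven members both shares were 58.4%, and among even members they were 38.2% and 44.1%. The ratio of NM replicate 2 to NM replicate 3 had a median of 1.22 in uneven members, 1.05 in even members and 1.04 in the other abundant IDs. The 123 IDs that had fallen further showed the same order in larger shares, with NM replicate 2 highest in 65.0% and NM replicate 3 lowest in 72.4%, so it was not particular to the members. Over the 228 members with no 0, the ratio of NM replicate 2 to NM replicate 3 was set against the ratio of AM replicate 2 to the other AM libraries (Spearman's rho = 0.343), and over 3113 other abundant IDs rho was 0.00771. With NM replicate 1 in place of NM replicate 3 the order was the opposite, with rho = 0.115 over the members and 0.355 over the other abundant IDs. These are descriptions over transcripts that share libraries, and which sets show a link depends on the NM pair that is used. What the replicates differed in was not tested.

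To see the fall in a library that took no part in the choice, the rule was applied with 1 AM library left out, and the IDs so chosen were read in that library. Without AM replicate 1, 285 IDs met the rule, and 78.6% of them were at or below 0.5 times the lowest NM value in AM replicate 1, against 15.1% of all abundant IDs. Without AM replicate 3, 238 IDs met the rule and 96.2% were at or below this level in AM replicate 3, against 20.4%. Without AM replicate 2, 249 IDs met the rule, and 52.6% were at or below it in AM replicate 2, against 14.0%. Most chosen IDs were thus at or below this level in each library left out. In AM replicate 2 their median was 41.5% of the NM mean (quartiles 33.5% and 50.5%). It was 27.5% in AM replicate 1 and 17.2% in AM replicate 3 when these were left out. The sets of IDs were chosen on different libraries, so these medians do not rank the AM libraries. Over all abundant IDs the medians were 93.7%, 90.1% and 83.8% in AM replicates 1, 2 and 3. In AM replicate 2, 248 of the 249 IDs were still below the lowest NM value, as were 1676 of all 3354 abundant IDs. Of the members, 131 were found again without AM replicate 2, 224 without AM replicate 1 and 229 without AM replicate 3. The NM values were used in each of these choices, so these shares rest in part on NM values chosen to be high relative to AM.

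**Figure D4:**
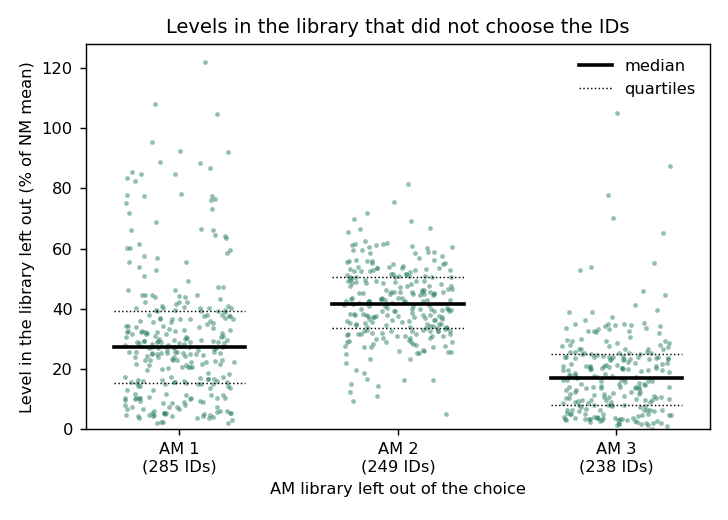
Level in the AM library that was left out of the choice, as a percent of the NM mean, for the IDs chosen on the other 5 libraries. Points are IDs, solid lines medians and dotted lines quartiles. The medians are 27.5%, 41.5% and 17.2% for AM replicates 1, 2 and 3.

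The same was done for the NM libraries. Without NM replicate 1, 271 IDs met the rule, and 84.1% of them had at least 2 times the highest AM value in NM replicate 1. Without NM replicate 2 the share was 95.0% of 240 IDs, and without NM replicate 3 it was 75.9% of 282 IDs. Over all IDs that reached 50 FPKM in the NM libraries used, the shares were 13.1%, 13.9% and 13.1%. In the library left out, the chosen IDs lay at a median of 92.5%, 110.0% and 85.7% of the mean of the other NM libraries for NM replicates 1, 2 and 3. A level of at least 2 times the highest AM value was therefore met by most chosen IDs in each NM library left out, least often in NM replicate 3. The AM values were used in each of these choices, so these shares rest in part on AM values chosen to be low, unlike those over all such IDs.

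In the fit over all 64974 tested IDs, 228 of the 229 members were called lower at an adjusted p under 0.05 (limma), where 7.14% of all tested IDs and 23.3% of the abundant IDs were called lower and 11.2% of all tested IDs were called higher. The rule used this contrast, so nothing is read from the count. The fitted log2 changes of the members ran from -5.03 to -1.14 with a median of -2.07, against a median of 0.05 over all tested IDs and of -0.14 over the abundant IDs. Even members had a median change of -1.65 with a median standard error of 0.17, and uneven members -2.40 with 0.38. The division used the lowest AM value, which favours a lower AM mean and a wider AM spread in uneven members without fixing either for each member. The member that was not called lay on 6AL, with 337.48, 263.6 and 228.42 FPKM in NM and 109.23, 104.72 and 14.98 FPKM in AM replicates 1, 2 and 3. Its fitted change was -2.26 with a standard error of 0.74 (adjusted p = 0.0847, limma), and AM replicate 3 alone was far below the other AM libraries.

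Members made up a larger share of the more abundant transcripts. They were 5.25% of the 1543 abundant IDs with an NM mean of 50 to 100 FPKM, 6.52% of 1074 IDs at 100 to 200 FPKM, 11.0% of 584 IDs at 200 to 500 FPKM and 9.15% of 153 IDs with a higher mean. In the highest class a further 21 IDs, 13.7%, lay at or below the lower limit, against 2.72% in the lowest class. Even members were 27 of 81 in the lowest class, 27 of 70 in the next, 13 of 64 at 200 to 500 FPKM and 1 of 14 at 500 FPKM or more. Relative to the NM mean, AM replicate 3 had medians of 17.3%, 19.3%, 13.4% and 7.43% from the lowest to the highest class, and AM replicate 2 had 32.8%, 32.8%, 30.3% and 27.4%. The rule bounds the highest AM value, which was that of AM replicate 2 in 188 members, so the narrower range there follows from the choice.

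The chromosome stated in the ID was not used by the rule beyond its presence. Subgenome A held 68 members, subgenome B 91 and subgenome D 70, that is 6.77%, 7.18% and 6.47% of the abundant IDs there. Their median NM mean was 154, 129 and 117 FPKM, and the NM mean exceeded the AM mean by a median of 3.89, 4.33 and 4.33 times. The subgenomes thus held members in shares close to that of all abundant IDs, 6.83%. Even members numbered 22, 23 and 23.

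Members lay on 38 of the 41 arms that held abundant IDs, counting 3B as 1. The counts were 14 each on 1AL and 2BL, 12 on 5BL, 10 on 1BL and 23 on 3B, which the IDs do not split into arms. Relative to the abundant IDs, the share was 8.77% on the group 1 chromosomes (40 members), 8.07% on group 2 (46), 7.56% on group 3 (43), 6.99% on group 4 (32), 4.35% on group 5 (23), 7.36% on group 6 (29) and 4.23% on group 7 (16). All members of group 5 were on long arms. The short arms 5AS, 5BS and 5DS held 91 abundant IDs and 0 members, and 6 of these IDs lay at or below the lower limit. Among arms of the same name, 6AL, 6BL and 6DL were alike at 9.18%, 9.43% and 8.04%, whereas 7AL and 7BL had 1 member each (1.82% and 1.89%) and 7DL had 7 (6.80%). Counts per arm are small, related copies of a gene on the A, B and D chromosomes may be counted separately, and no test of these shares was made.

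**Figure D5:**
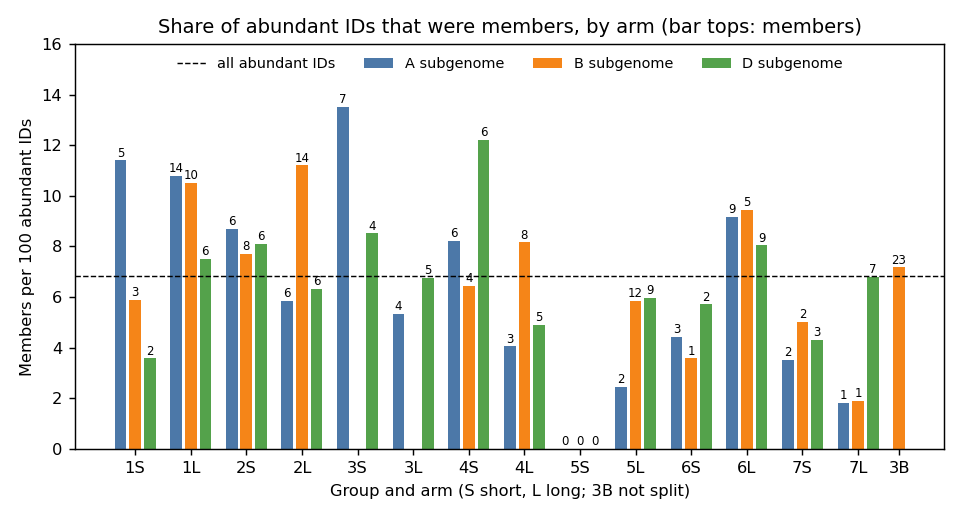
Members per 100 abundant IDs for each chromosome arm, by subgenome, with the number of members above each bar and the share over all abundant IDs (6.83) as a dashed line. The short arms of group 5 hold 0 members, and 3AS has the tallest bar, with 7 members or 13.5 per 100 abundant IDs.

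On chromosome 3B, 18 members carried TRAES3BF IDs, which state a scaffold and a gene number in steps along it, and 5 carried Traes_3B IDs. The 18 lay on 16 scaffolds. On scaffold 276100, members had the gene numbers 80 and 90, and the ID with number 70 fell as well, by 1.60 on the log2 scale with a standard error of 0.27 (adjusted p = 0.00971, limma). That ID had 4035.64, 4428.17 and 2606.18 FPKM in NM and 1440.01, 1217.72 and 954.63 FPKM in AM, and is not a member because its highest AM value exceeded 0.5 times its lowest NM value. The member at number 80 is the one of rank 5 above, and the member at number 90 had 91.83, 106.32 and 53.09 FPKM in NM and 14.44, 7.81 and 13.63 FPKM in AM. In all 3 IDs of this run NM replicate 3 was the lowest NM library. Adjacent genes may be copies that share reads, which was not tested.

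Over the 18 members, 29 nearest IDs on the same scaffold were not members, and 16 of them passed the filter on low values and were tested. Of these 16 neighbours, 6 were called lower and 2 higher in limma, where 8.0% of the 2774 tested TRAES3BF IDs were called lower and 13.7% higher. Their fitted log2 changes ran from -2.29 to 1.99 with a median of -0.12, against 0.02 over the tested TRAES3BF IDs. Without NM replicate 2, 3 of the 16 were called lower, and the lower calls over all tested IDs went from 4637 to 2124. On a further scaffold the member at gene number 30 had 188, 204.67 and 136.94 FPKM in NM and 15.58, 56.28 and 8.21 FPKM in AM. Its neighbour at number 40 had 20.91, 19.74 and 13.58 FPKM in NM and 1.4, 5.64 and 2.54 FPKM in AM, and fell by 2.29 on the log2 scale (adjusted p = 0.00969, limma). The neighbour at number 20 had 7.76, 8.38 and 4.19 FPKM in NM and 0.99, 2.51 and 1.2 FPKM in AM, and fell by 1.60 (adjusted p = 0.0166, limma). All 3 of these IDs had NM replicate 3 as the lowest NM library and AM replicate 2 as the highest AM library. Other neighbours did not share the direction, such as the ID next to a member on scaffold 168400, which rose by 1.99 on the log2 scale (adjusted p = 0.00526, limma). That ID was low in NM, with 1.69, 0.65 and 0.54 FPKM, and had 5.64, 8.86 and 5.61 FPKM in AM.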

How the data were processed

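RNA-seq levels of 6 wheat root libraries (3 AM, 3 NM) were taken from the deposited table, which holds 1 FPKM column per library with 2 decimals, per the file headers. The submitters' processing notes list RSEM, Cufflinks, TopHat2 and edgeR with neither version nor role, and the genome build is not given in the sources used here. FPKM removes transcript length and library size, so counts and depth are unknown and no counting interval is given. All 6 columns matched a sample title. The 64974 IDs that reached 1 FPKM in 3 libraries or more were tested in limma 3.58.1 (R 4.3.3) on log2(FPKM + 1) with a mean-variance trend and no block, adjusted by Benjamini-Hochberg over all of them; this scale understates changes of low values. The fit was checked on simulated data. Counts and medians used Python 3.11.15 and pandas 2.3.3. The members, the comparison lists and the tests were chosen with earlier results of these data known. The IDs matched 0 of 155467 reference genes (IWGSC CS RefSeq v2.1), so by the naming rule only 2 member IDs are printed, the most abundant and the one nearest the median change. Others are given by arm and rank. P-values set the difference between AM and NM against the spread of samples within the groups, as moderated by limma over all tested IDs. Alternatives were another pseudocount, no filter, rescaling, a replicate block, stricter calls, other thresholds of the rule and leaving out each library.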

Additional observations from a re-analysis of the deposited data

How the results depend on the processing

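No setting that was run turned the direction of a result. The number of members was 421 or 129 with an NM minimum of 20 or 100 FPKM, 386 by group means (106 of them members), 269 after median-ratio rescaling, and 238 to 285 with 1 library left out. Requiring every AM value above 0.25 times the lowest NM value, a setting chosen after seeing the data, gave 68. Over all tested IDs, 4637 were called lower and 7272 higher. At an adjusted p under 0.01 these counts were 1626 and 3166, and with 1 library left out they ran from 2124 to 4071 lower and from 4089 to 6065 higher; without NM replicate 1, NM replicate 2 or AM replicate 3 the lower calls were 2283, 2124 and 2983, and without NM replicate 1 or 2 the higher calls were 4240 and 4089. The cause was not tested; these fits used fewer samples. The members called lower numbered 228, against 158 at an adjusted p under 0.01 and 172 to 228 with 1 library left out. The median log2 change over the members ran from -2.25 to -1.87. The rule used this contrast, so nothing is read from these counts. The neighbours on 3B called lower were 3 to 6. In the fit with a replicate block, 227 members were called lower, and 4094 tested IDs were lower and 6323 higher. Deviations of libraries with the same number correlated at 0.124, 0.0708 and 0.0437. Those of libraries with different numbers were all lower, from -0.111 to 0.0354. The same-number values were not all above 0.1, so the main fit did not pair the libraries by number. Whether the numbers mark pairs was not tested. Unknown depth limits the low AM values.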
